A study of Mus musculus with 6 samples.

Results

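The basement membrane genes described here are 8: Col4a1 and Col4a2, which encode the common chains of type IV collagen, the laminin chain genes Lama1, Lamb1 and Lamc1, the linker genes Nid1 and Hspg2, and Sparc, a collagen-binding matrix glycoprotein. All probe sets annotated to these genes and to no other gene were taken, which gave 18 of the 45101 probe sets on the array, and 0 probe sets named a member together with another gene. Of the 18, 16 passed the filter on low signal and were tested among 27022, so that all 8 genes had at least 1 tested probe set among 12452 tested genes. The others, 1446180_at of Lamb1 with signals of 4.9 to 77.9 and 1441519_at of Nid1 with signals of 1.0 to 52.6, were not tested.

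The arrays come from mouse embryoid bodies, the aggregates in which embryonic stem cells differentiate once LIF is withdrawn. Every culture was grown from the Hoxb4i stem cell line, so the uninduced controls carry the same tet-on cassette for HOXB4, a homeodomain factor of blood progenitors. Cultures started at 3500 cells/ml and were collected on day 6, either without induction or after 48 hours of doxycycline at 2 µg/ml from day 4, and the study asked how the transcriptome differs between them. Each group holds 3 arrays, 1 from each of experiments A, B and C, which the series names biological replicates. The sources used here do not say what distinguished the experiments, all cultures stem from the same line, and cells treated with doxycycline but lacking the cassette were not analysed here.

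Basement membranes are thin sheets of matrix beneath epithelia and endothelia and around muscle. Laminin, a trimer of an alpha, a beta and a gamma chain, assembles on the cell surface, type IV collagen forms a covalently linked network, and nidogen and perlecan join these networks. In embryoid bodies and in the early embryo the endoderm makes such a sheet beneath itself. The parietal endoderm, which lays down Reichert's membrane, is known for very high output of type IV collagen, laminin and Sparc.

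The median signal per array was 92.0 to 108.6. Hoxb4, on both of its probe sets, was higher in the induced array in 3 of 3 experiments. Of all tested probe sets, 12.8% showed this. Neither Hoxb4 probe set passed the test (log2 differences of 0.57 and 0.86, limma adjusted p = 1 for both). On the first, signals rose from 46.5 to 116.4 in A, 119.8 to 129.5 in B and 113.5 to 175.5 in C. On the second they rose from 78.2 to 136.3, 253.0 to 261.4 and 27.6 to 150.7, so the rise in B was small on both. It is not stated in the sources used here if the cassette's own transcript is read by either probe set. The uninduced array of A stood apart: its ratio of 3' to 5' signal was 2.88 for Actb against 1.26 to 1.48 on the other 5 arrays, and it gave the highest or the lowest value for 53.8% of all tested probe sets and for 6 of 16 member probe sets. Signals are scaled intensities, and levels of a gene are therefore compared between arrays for 1 probe set. Sums over marker genes are also compared between arrays, and bright probe sets weigh most in them. Log2 differences are on the log2(signal + 18.8) scale, which understates changes of dim probe sets, and with so few arrays the precision is low.

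Member genes were called between experiments, and none between induced and uninduced cultures. By limma's moderated F test over the experiments, 9 of 16 member probe sets passed an adjusted p of 0.05, where 11.6% of all tested probe sets did, and they named 5 of the 8 genes: Col4a1, Lama1, Lamb1, Nid1 and Sparc. Experiment C was the low one. Both C arrays lay below the other 4 on 10 of 16 member probe sets, where 15.3% of all tested probe sets showed this. Both B arrays lay above the other 4 on 6 of 16, against 12.2% of all.

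In the pairwise contrasts, each adjusted by itself over all tested probe sets, 8 of 16 member probe sets, of Col4a1, Lamb1, Nid1 and Sparc, were lower in C than in B, where 5.26% of all tested probe sets were. Against A, 6 of 16 were lower in C, of Col4a1, Lama1, Lamb1 and Nid1, where 4.29% of all were. No member probe set was called higher in C in either contrast. Between A and B, 1 of 16 was called higher in B, the main probe set of Nid1, where 2.09% of all were. The arrays of 1 experiment were taken to share its cells, so these p-values measure the spread between a pair of arrays after the doxycycline term. In bulk RNA, fewer cells of a type and less RNA per cell cannot be told apart.

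These counts rested on few arrays and on limma's intensity trend, and the share of all tested probe sets called moved with them. Without the trend, 1 member probe set (of Nid1) passed the F test, where 4.39% of all did, 2 (of Nid1 and Lamb1) were lower in C than in B (3.46% of all), and 0 were lower in C than in A (0.463% of all). The F count of members was 2 without the uninduced array of C (5.65% of all), 5 without either array of B (5.68% and 6.54%), 3 without both B arrays (6.49%) and 1 without both C arrays (4.06%). Leaving out the uninduced array of A gave 14, where 32.4% of all passed, and leaving out the induced one gave 13, where 51.1% did.

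For C against B the member count was 2 without the uninduced array of C (3.03% of all), and 5 and 4 without the uninduced and the induced array of B (2.20% and 2.08%). For C against A it was 0 and 2 without the uninduced and the induced array of C (0.803% and 0.892% of all). It was 3 without either array of B or both (3.37% to 3.57%), and 10 without the induced array of A (19.0%).

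**Figure D1:**
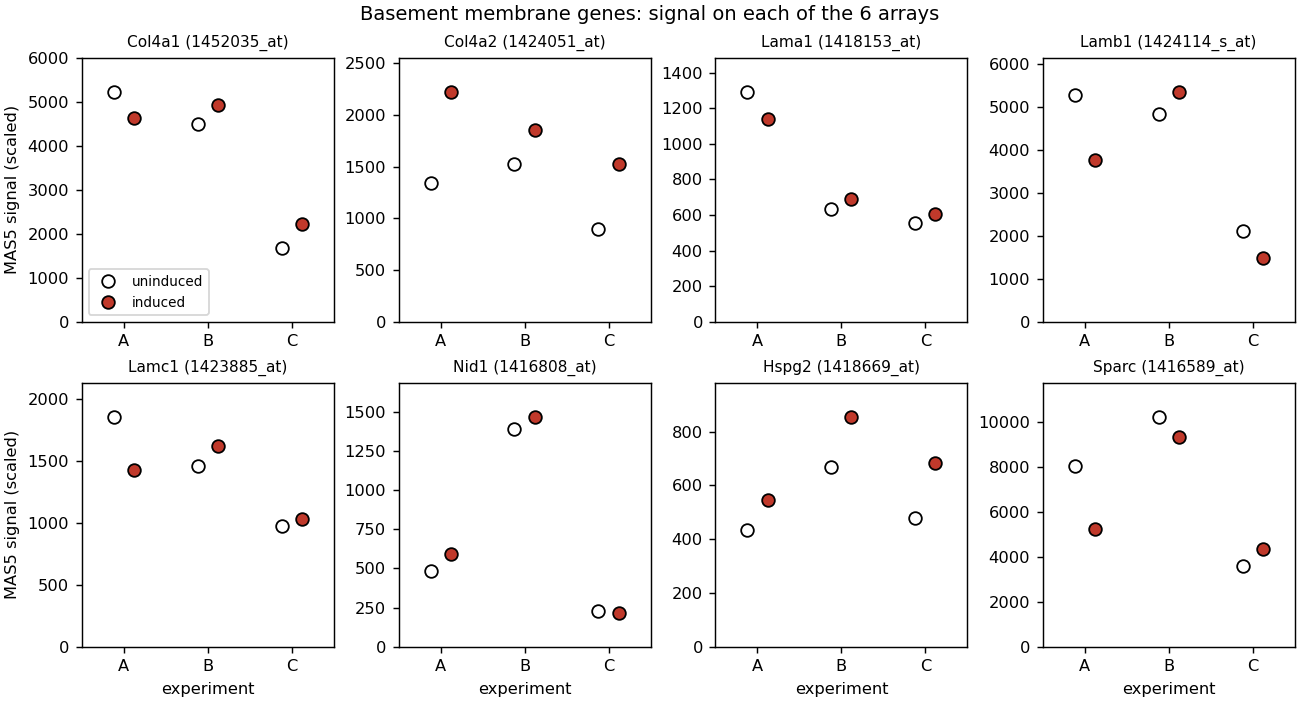
Scaled MAS5 signal (vertical axes, from 0) of each basement membrane gene, by its tested probe set of highest mean, on the 6 arrays, with open points for uninduced and filled points for induced cultures of experiments A, B and C. Both C arrays are the lowest pair for Col4a1, Lama1, Lamb1, Lamc1, Nid1 and Sparc, both A arrays are the highest for Lama1, and both B arrays the highest for Nid1 and Sparc.

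Col4a1 and Col4a2 encode the chains that combine as 2 to 1 in the most widespread type IV collagen. They lie head to head on chromosome 8 of the mouse (GRCm38.p6), Col4a1 at chr8:11198423-11312889 on the minus strand and Col4a2 at chr8:11312805-11449287 on the plus strand. The transcript starts on which their RefSeq promoter windows rest are 21 bases apart. Because this pair shares a promoter region and Col4a1, but not Col4a2, passed the test between experiments (the difference between the genes was not tested), both windows, from 250 bases before to 50 bases after the start, are printed 5′ to 3′ on the strand of the gene. Capitals mark GGGCGG and CCAAT, on either strand. Col4a1 is chr8:11312777-11313076, minus strand, and Col4a2 is chr8:11312555-11312854, plus strand.
Col4a1: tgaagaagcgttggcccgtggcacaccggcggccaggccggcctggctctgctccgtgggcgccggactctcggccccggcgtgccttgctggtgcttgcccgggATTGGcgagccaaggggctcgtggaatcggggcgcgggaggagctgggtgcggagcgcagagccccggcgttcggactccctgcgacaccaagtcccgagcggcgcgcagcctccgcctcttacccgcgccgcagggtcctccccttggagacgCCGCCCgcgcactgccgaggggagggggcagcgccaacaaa
Col4a2: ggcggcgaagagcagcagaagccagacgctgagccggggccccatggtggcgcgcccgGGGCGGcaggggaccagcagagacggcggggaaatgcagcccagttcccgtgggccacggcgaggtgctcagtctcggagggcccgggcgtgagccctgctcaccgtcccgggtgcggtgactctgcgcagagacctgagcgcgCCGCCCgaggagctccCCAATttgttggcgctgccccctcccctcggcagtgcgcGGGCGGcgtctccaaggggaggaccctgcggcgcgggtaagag

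The windows overlap over 78 bases, chr8:11312777-11312854, which are the same sequence read on opposite strands and hold 1 GGGCGG and 0 CCAAT. In all, GGGCGG, the core of the GC box, occurs 1 time in the Col4a1 window and 3 times in the Col4a2 window, and CCAAT occurs 1 time in each. Over 32851 promoter windows of this length, 35.7% hold GGGCGG and 37.4% hold CCAAT on either strand. Neither TATAAA, held by 13.6% of all windows, nor TAAT, a core shared by many homeodomain sites and held by 58.0%, occurs in these windows. They are rich in G and C, at 74.0% and 73.7% against a median of 52.7%. Of the other members, RefSeq windows were matched for Hspg2, Lamb1, Nid1 and Sparc, and TAAT occurs 1 time each in those of Lamb1 and Sparc. Lama1 and Lamc1 were not matched.

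Col4a1 was lower in experiment C than in A and B. On probe set 1452035_at the signals were 5225.0 uninduced and 4645.7 induced for A, 4516.5 and 4942.6 for B and 1679.0 and 2235.8 for C. Both C arrays were below the other 4, and A and B overlapped. The difference C minus B was -1.28 on the log2 scale, with a 95% confidence interval of -1.70 to -0.85, a 2.42-fold lower signal (adjusted p = 0.00465). Against A it was -1.34, from -1.76 to -0.91 (adjusted p = 0.0110). Probe set 1426348_at gave 1209.6 and 1706.6 for A, 1094.7 and 1357.0 for B and 581.5 and 795.0 for C, again with C lowest. Its differences were -0.82 against B and -1.06 against A (adjusted p = 0.0389 and 0.0256). Without the trend, or without the uninduced array of C, both contrasts of 1452035_at missed the threshold, at an adjusted p of 0.0501 to 0.0965.

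Col4a2 did not separate the experiments. Its probe set 1424051_at read 1342.4 uninduced and 2218.8 induced for A, 1524.2 and 1854.9 for B and 893.3 and 1526.9 for C. The induced array of C lay among those of A and B, so the experiments overlapped. C minus B was -0.52, from -0.99 to -0.04 (adjusted p = 0.170), and C minus A was -0.56, from -1.03 to -0.08 (adjusted p = 0.129). Without the uninduced array of A, C minus A was -0.65, and without the induced one it was -0.46. C minus B stayed at -0.52 in these runs. They leave 1 array of A, so only the size is given. Without both arrays of A, C minus B passed (adjusted p = 0.00224), where 13.8% of all tested probe sets were called lower. Over the 6 arrays, which share cells within experiments, Col4a1 and Col4a2 correlated at r = 0.69, as a description. That is below the r of 0.96 of Col4a1 with Lamc1 and 0.90 with Lamb1.

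The laminin chain genes Lama1, Lamb1 and Lamc1 encode the chains of laminin-111, the laminin of the early embryo. Lamb1, the beta chain, was lower in C. Its probe set 1424114_s_at read 5286.2 and 3769.3 for A, 4830.7 and 5341.1 for B and 2123.9 and 1474.6 for C, so that both C arrays were well below the other 4. C minus B was -1.51, from -1.98 to -1.04, a 2.85-fold lower signal (adjusted p = 0.00333), and C minus A was -1.33 (adjusted p = 0.0146). The call against B was lost without the induced array of B (adjusted p = 0.0525). That against A was lost without the trend or without either array of C (0.0525 to 0.0925).

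The other Lamb1 probe sets had the same sign but did not pass in every contrast. Probe set 1424113_at gave 2329.5 and 1485.9 for A, 1639.1 and 1691.1 for B and 536.9 and 691.8 for C, with a C minus B of -1.42 (adjusted p = 0.0135) and a C minus A of -1.58 (adjusted p = 0.0178). On 1451241_at the signals were 460.3 and 756.7 for A, 1192.8 and 1053.9 for B and 420.6 and 401.4 for C. There the B arrays stood above the others and A was close to C. The difference was -1.41 against B (adjusted p = 0.0168) and -0.50, from -1.14 to 0.13, against A (adjusted p = 0.269).

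Lama1, the alpha chain of laminin-111, had another order, with A highest. Its probe set 1418153_at gave 1288.7 and 1141.4 for A, 633.1 and 688.2 for B and 556.4 and 608.3 for C. The A arrays were above the other 4 and the C arrays below them, with B close above C. C minus A was -1.04, from -1.54 to -0.54 (adjusted p = 0.0347), and B minus A was -0.86, from -1.36 to -0.36 (adjusted p = 0.0694). C minus B was -0.18, from -0.68 to 0.32 (adjusted p = 0.676). The call of C against A was lost without the trend, without any 1 array of B or C, or without both B arrays (adjusted p = 0.0618 to 0.284). B minus A passed without the doxycycline term (adjusted p = 0.0473). Without the uninduced or the induced array of A it was -0.71 and -1.01. These runs leave 1 array of A, so only the size is given.

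Lamc1, the gamma chain shared by most laminins, was lowest in C without passing the test. Signals on 1423885_at were 1850.6 and 1425.8 for A, 1459.5 and 1617.3 for B and 974.4 and 1028.2 for C, so both C arrays were below the other 4. C minus B was -0.61, from -1.10 to -0.12 (adjusted p = 0.122), and C minus A was -0.69, from -1.18 to -0.20 (adjusted p = 0.0854). Leaving out either array of A, or both, brought C against B past the threshold (adjusted p = 0.000355 to 0.000480), and leaving out the induced array of A brought C against A past it (2.89e-05). The dim probe set 1423886_at, at 72.5 to 246.9, ran the other way, with C minus B at 0.89, from -0.06 to 1.85 (adjusted p = 0.233).

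Nid1 encodes nidogen, which binds both laminin and type IV collagen, and it showed the largest difference of the members between B and C. On probe set 1416808_at the signals were 484.9 uninduced and 593.8 induced for A, 1390.8 and 1462.2 for B and 227.9 and 217.3 for C. The experiments did not overlap, in the order B, A, C. C minus B was -2.58, from -3.12 to -2.05, a 5.99-fold lower signal (adjusted p = 0.000518), which passed under every alternative run that gives a test of it. B minus A was 1.38, from 0.85 to 1.91, a 2.60-fold higher signal (adjusted p = 0.0220), and C minus A was -1.20, from -1.74 to -0.67 (adjusted p = 0.0278). B minus A was lost without the trend or without either B array (adjusted p = 0.0794 to 0.287), and C minus A without the trend or without any 1 array of B or C or both of B (0.0521 to 0.167). The dimmer probe set 1448469_at read 26.4 and 187.8 for A, 311.7 and 233.8 for B and 126.7 and 54.7 for C, and its C minus B of -1.48, from -3.07 to 0.10, did not pass (adjusted p = 0.236). Its C minus A was 0.10, from -1.49 to 1.68, and the median of both probe sets puts C minus A at -0.55.

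Hspg2 encodes perlecan, the heparan sulfate proteoglycan of basement membranes. Its probe set 1418669_at gave 434.0 and 543.9 for A, 668.0 and 852.6 for B and 478.3 and 683.9 for C. The experiments overlapped, and C minus B was -0.39, from -0.90 to 0.13 (adjusted p = 0.341). C minus A was 0.23, from -0.29 to 0.74 (adjusted p = 0.541). On 1418670_s_at the signals were 469.9 and 340.2 for A, 588.5 and 669.8 for B and 110.7 and 429.6 for C, with the uninduced array of C lowest. C minus B was -1.42, from -2.52 to -0.33 (adjusted p = 0.111).

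Sparc, also called osteonectin, binds collagen outside the cell and was high in B and low in C. Its probe set 1416589_at gave 8032.4 and 5237.7 for A, 10215.5 and 9329.3 for B and 3618.6 and 4363.5 for C, with no overlap between experiments. Probe set 1448392_at gave 6344.3 and 5116.5 for A, 9172.2 and 8988.8 for B and 3384.6 and 4448.5 for C, in the same order. C minus B was -1.29, from -1.77 to -0.81, a 2.45-fold lower signal, on the first and -1.22, from -1.65 to -0.79, on the second (adjusted p = 0.00765 and 0.00611). C minus A was -0.70 and -0.55 (adjusted p = 0.0784 and 0.108). The first probe set's C minus B missed the threshold without the trend (0.0712) or without the uninduced array of C (0.0683). Without the induced array of A its C minus A was -1.05 and its B minus A 0.25. Without the uninduced array of A they were -0.36 and 0.93. These runs leave 1 array of A, so only the size is given. The dim probe set 1458204_at, at 51.7 to 131.0, showed no such order (C minus B 0.25, adjusted p = 0.802).

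**Figure D2:**
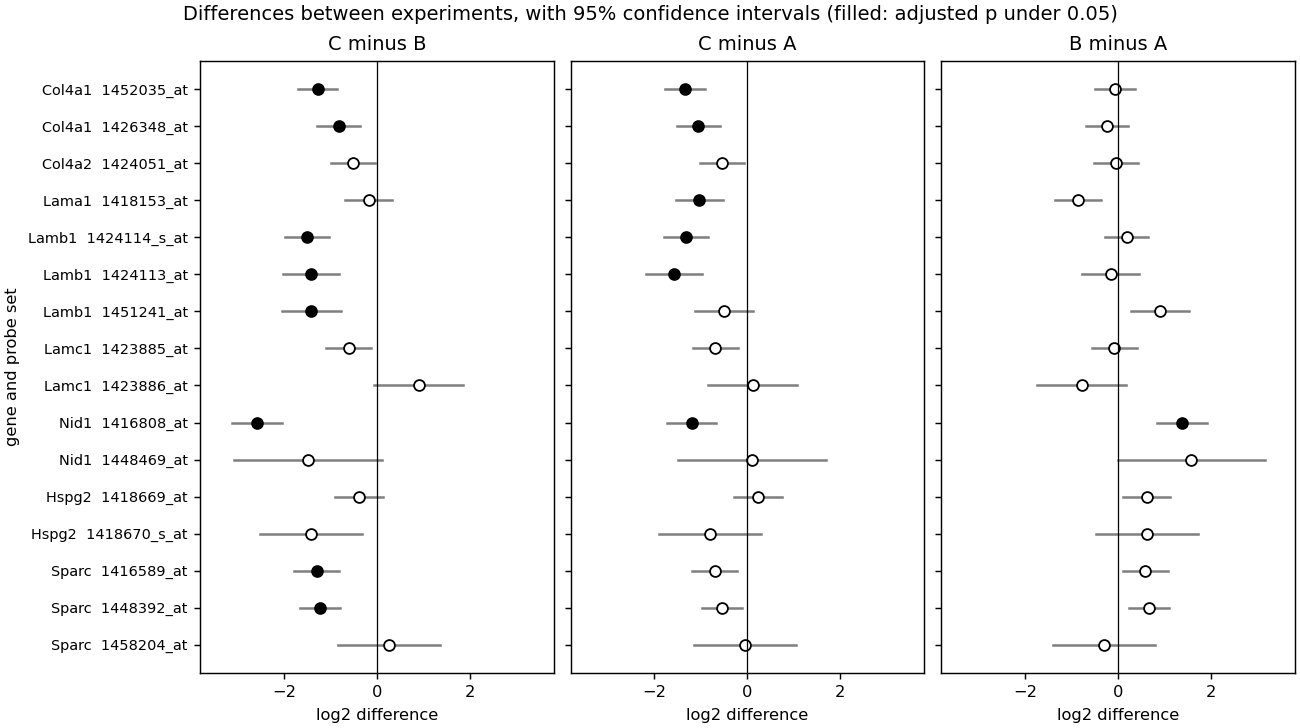
Log2 differences between experiments (horizontal axes) for the 16 tested member probe sets, 1 row each, with 95% confidence intervals from limma and filled points where the adjusted p is under 0.05. Of 16 probe sets, 14 lie left of 0 for C minus B and 13 for C minus A, while B minus A is divided 8 to 8.

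Across the 6 arrays the members followed one another unevenly. Each gene's profile was set against the mean profile of the other 7, as a description over arrays that share cells within experiments. Col4a1 followed it most closely (r = 0.96), then Lamc1 (0.90), Lamb1 (0.89), Sparc (0.88) and Nid1 (0.84). Col4a2 (0.60), Lama1 (0.37) and Hspg2 (0.26) followed it less. Between probe sets of 1 gene, r was 0.91 for Col4a1, 0.98 for the bright pair of Sparc, 0.56 to 0.92 for Lamb1, 0.66 for Nid1, 0.60 for Hspg2 and -0.38 for Lamc1.

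Doxycycline gave no call. With limma, 0 of 16 member probe sets passed, as did 0% of all tested probe sets, and the replicate block on the experiment also gave 0. At an unadjusted p under 0.05 there were 0 of 16 members (138 of 27022 overall), and 2 of 16 with the block (1065 overall), those of Col4a2 and 1426348_at of Col4a1 (limma adjusted p = 0.930 for both). The difference was positive for 11 of 16 probe sets. By main probe set it was positive for 5 of 8 genes, beside 6602 of all 12452 tested genes. It was positive within 3 of 3 experiments for 3 of 16, probe set 1426348_at of Col4a1, Col4a2 and probe set 1418669_at of Hspg2, where 12.8% of all tested probe sets showed this.

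Col4a2 had the highest difference of the genes' main probe sets. Its mean signal was 1253 ± 324.8 (SD, n = 3) uninduced and 1867 ± 346.1 (SD, n = 3) induced, a log2 difference of 0.59 with a 95% confidence interval of -0.03 to 1.20 (limma adjusted p = 1), or 0.20 to 0.97 with the block (adjusted p = 0.930). By experiment, A gave 0.72, B 0.28 and C 0.76, each from 1 pair of arrays. The groups did not overlap, by a margin of 1524.2 against 1526.9. It was the 1 of 16 member probe sets without overlap, where 4.34% of all tested probe sets had none.

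Col4a1 showed 0.12, from -0.98 to 1.23, on 1452035_at (-0.17, 0.13 and 0.41 in A, B and C) and 0.41, from -0.46 to 1.29, on 1426348_at (0.49, 0.31 and 0.44). Hspg2 on 1418669_at had a mean of 526.8 ± 124.3 (SD, n = 3) uninduced and 693.5 ± 154.6 (SD, n = 3) induced, a difference of 0.39 with an interval of -0.26 to 1.03. Its other probe set ranged from -0.45 in A to 1.79 in C. The laminin chains lay near 0 with wide intervals: 0.02 for Lama1 (-0.87 to 0.91), -0.29 for Lamb1 on 1424114_s_at (-1.49 to 0.92) and -0.05 for Lamc1 on 1423885_at (-0.74 to 0.64). Nid1 was at 0.10 (-1.73 to 1.93) and Sparc at -0.16 (-1.15 to 0.83) on their main probe sets. These intervals count the differences between experiments as spread, and for 6 of the 8 main probe sets they reach beyond 1.5-fold in both directions. With the block 0 of 8 do so, and the intervals of 5 lie within 1.5-fold both ways: Col4a1 (-0.22 to 0.47), Lama1 (-0.39 to 0.43), Lamc1 (-0.45 to 0.35), Nid1 (-0.34 to 0.53) and Sparc (-0.55 to 0.23). Those of Col4a2, Lamb1 (-0.67 to 0.10) and Hspg2 (-0.03 to 0.81) reach beyond it on 1 side.

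**Figure D3:**
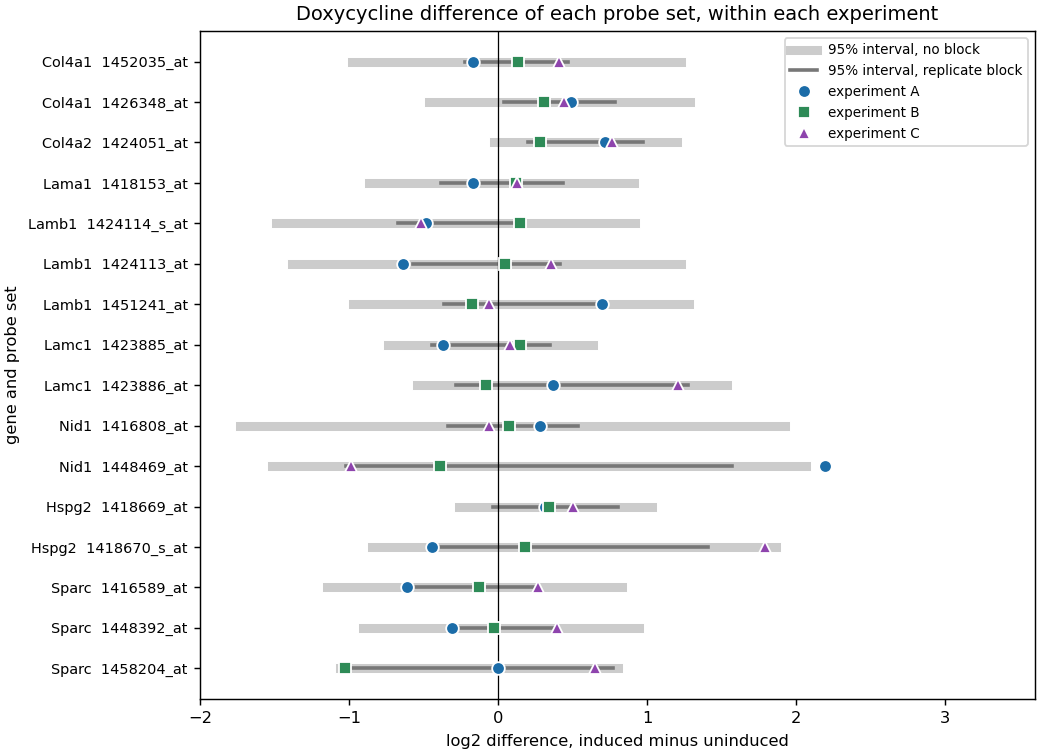
Log2 difference of induced minus uninduced (horizontal axis) for the 16 member probe sets within experiments A (circles), B (squares) and C (triangles), with 95% confidence intervals without the replicate block (wide grey bars) and with it (thin dark bars). All wide bars cross 0, and the thin bars of Col4a2 and of 1426348_at of Col4a1 lie above 0.

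The rest of the basement membrane machinery was read from lists drawn up by role, each gene by its probe set of highest mean. Of 19 tested other basement membrane components, 9 passed the F test over experiments, where 14.0% of all tested genes did. In C, 5 were lower and 3 higher than in B, where 6.94% of all genes were lower and 5.78% higher. Lama4, the alpha chain of endothelial and muscle laminins, had signals of 56.7 and 168.0 for A, 679.5 and 758.2 for B and 23.7 and 10.9 for C, and C minus B was -4.37 (adjusted p = 0.00118). Its C signals lay near the offset, so the size of this difference is uncertain. It was -5.39 with an offset of 1 and -2.80 with an offset of 100, and was called with both. The median over the probe sets of Lama4 was -2.92. Smoc2, a calcium-binding matrix protein of the Sparc family, was also lower, with a C minus B of -4.14, as were Frem1 at -2.79 and Tinagl1 at -2.02 (adjusted p = 0.000362, 0.000860 and 0.0113).

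Frem2, an epithelial basement membrane protein related to Frem1, ran the other way, at 2457.7 and 1854.0 for A, 267.8 and 307.8 for B and 2686.8 and 2121.9 for C, and C minus B was 2.98 (adjusted p = 0.000268). Lama5, which encodes the alpha chain of the laminins that replace laminin-111 in later epithelia, was lower in B than in A, with a B minus A of -1.29 (adjusted p = 0.0216) and did not differ past the threshold between C and B (0.47, adjusted p = 0.228). The other type IV collagen genes Col4a5 and Col4a6, named here after their values were seen, were higher in C than in A by 1.23 and 1.51 (adjusted p = 0.0295 and 0.0340), opposite in sign to Col4a1. Their C minus B was 0.67 and 1.35 (adjusted p = 0.140 and 0.0340), so against B only Col4a6 was called. The calls of Tinagl1 and Lama5, and those of Col4a5 and Col4a6 against A, were each lost on leaving out some single array. Without the trend those of Lama5, Col4a5 and Col4a6 were lost.

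Among 18 tested genes for the folding and crosslinking of collagens, not of type IV alone, 4 passed the F test (14.0% of all genes). In C, 5 were lower (6.94% of all) and 0 higher (5.78% of all) than in B. P4ha2, a subunit of the prolyl hydroxylase that stabilises the collagen helix, gave 683.0 and 978.9 for A, 1838.4 and 1843.5 for B and 556.4 and 427.3 for C, a difference of -1.88 between C and B (adjusted p = 0.00345). Loxl1, a lysyl oxidase, was also lower in C, at -2.06 (adjusted p = 0.00855), as were Crtap, a partner of a prolyl hydroxylase, at -0.98 (0.0153) and Serpinh1, the collagen chaperone, at -0.72 (0.0176). All but P4ha2 lost the call without 1 or more single arrays, and Crtap and Serpinh1 also without the trend. Pxdn, named here after its values were seen, was lower at -0.68 (adjusted p = 0.0306) but missed the F test (0.0544). Its call under the alternatives is not given here.

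Of 11 tested receptors for laminin and type IV collagen, 2 passed the F test (14.0% of all genes), and 0 were lower (6.94% of all) and 1 higher (5.78% of all) in C than in B, counts near those shares. Itga6, the alpha subunit of laminin-binding integrins, was lowest in B, at 2308.4 and 1899.2 for A, 895.4 and 840.4 for B and 1909.7 and 2259.0 for C. Its B minus A was -1.25 and its C minus B 1.24 (adjusted p = 0.0198 and 0.00818). Bcam, a laminin receptor of the immunoglobulin family, was lower in B than in A, with a B minus A of -1.62 (adjusted p = 0.0471). That call of Bcam was lost with an offset of 1, with no filter or a stricter one, with quantile normalization, without the trend and without either B array. That of Itga6 for B against A was lost without the trend or either B array.

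The median C minus B was -0.94 over the 8 members, -0.31 over the other components, -0.34 over the folding and crosslinking genes and -0.11 over the receptors, beside 0.07 over all 12452 tested genes. For doxycycline 0 genes of any list were called, with medians of 0.06, 0.21, 0.05 and -0.04 in the same order, beside 0.02 over all.

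**Figure D4:**
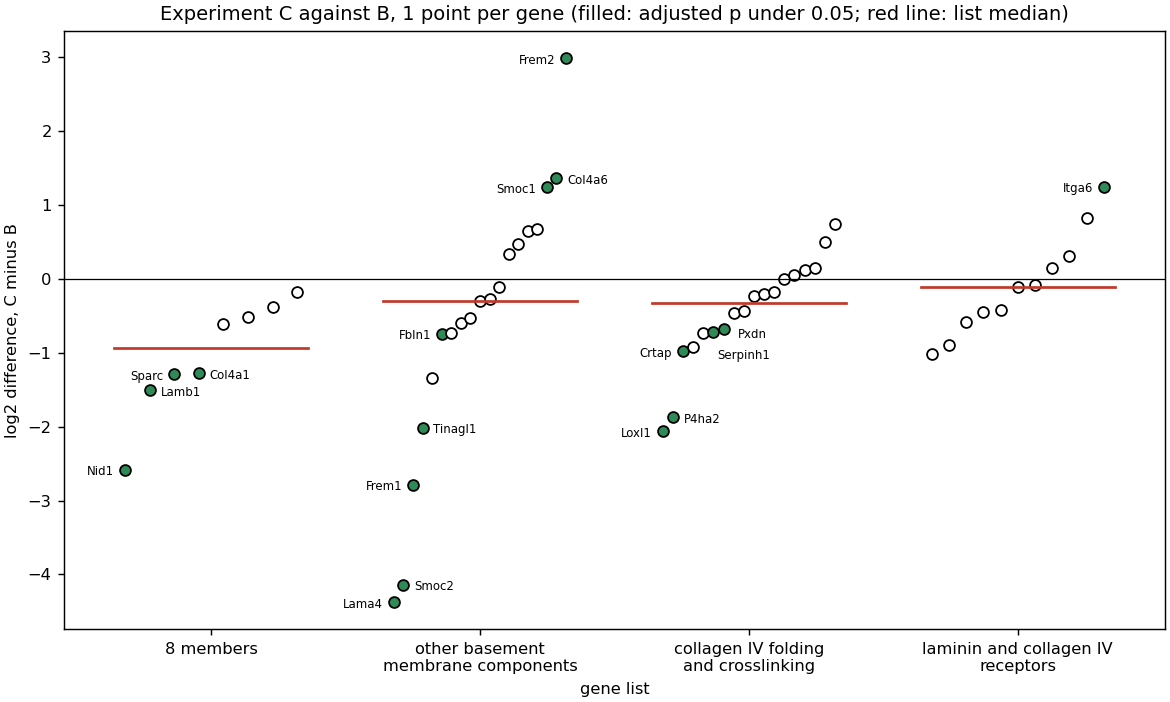
Log2 difference C minus B (vertical axis) of the 8 members, of 19 other basement membrane components, 18 collagen folding and crosslinking genes and 11 receptors, 1 point per tested gene ordered by value, filled where the adjusted p is under 0.05, with a red line at each list's median. The member median is -0.94, and those of the other lists lie from -0.34 to -0.11.

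Marker genes of cell types that embryoid bodies can hold differed between the same experiments, beside 6.94% of all tested genes lower and 5.78% higher in C than in B. Of 11 parietal endoderm markers, 6 (Sox7, Krt19, Gata6, Gata4, Sox17 and Dab2) were lower and 3 (Fst, Plat and Stra6) higher in C than in B. Thbd and Pth1r were not called (-0.37 and -0.66, limma adjusted p = 0.769 and 0.165). Whether the markers are particular to parietal endoderm was not tested. Their summed signal was 6646.7 to 8732.6 for A, 9549.1 to 10103.0 for B and 3335.1 to 3841.1 for C. Without Dab2 it was 5283.8 to 7358.4 in A, 7292.2 to 7780.5 in B and 2620.5 to 3148.4 in C, so that A and B overlapped. Of 10 tested visceral endoderm markers 5 were lower in C than in B. The sum of the 10 was 7788.3 to 8998.5 for A, 15391.3 to 16512.8 for B and 1139.9 to 1295.2 for C. Between A and B the markers were split. In B, 3 (Ttr, Apoa1 and Rbp4) were called higher than in A and 3 (Afp, Foxa2 and Amn) lower, beside 344 and 295 of all 12452 tested genes. Ttr, the thyroid hormone carrier made by visceral endoderm, read 91.2 and 159.7 in C against 10701.3 and 11110.3 in B. It makes up most of that sum in B: without it the sum was 3930.3 to 4784.4 in A, 4690.0 to 5402.5 in B and 1048.7 to 1135.5 in C, so that A and B overlapped.

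Endothelial markers were lower in C than in B for 8 of 10 (sums of 960.5 to 1949.3 for A, 6587.5 to 6982.7 for B and 569.7 to 1136.5 for C). Mesenchyme markers were lower for 7 of 10 (4333.9 to 4505.7, 24742.6 to 26336.6 and 3180.4 to 4275.4), and cardiac muscle markers for 5 of 8 (2805.8 to 2944.8, 7730.2 to 10016.6 and 547.8 to 665.1). Neural markers were higher in C for 8 of 10 (4692.3 to 7095.4, 1427.0 to 1786.9 and 10699.2 to 11823.5) and pluripotency markers for 3 of 7 (1746.3 to 1812.5, 1066.2 to 1384.5 and 3711.9 to 3719.8). Without Dppa5a, the brightest pluripotency marker, that sum was 1134.3 to 1593.2 in A, 538.8 to 716.8 in B and 1461.6 to 1471.1 in C, so that C lay within the range of A. No tested marker was at exactly 0 on any array, and Apoa1, Myl7 and Tnni1 were below 18.8 on both C arrays. The part of these cell types in the differences of the basement membrane genes was not tested.

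**Figure D5:**
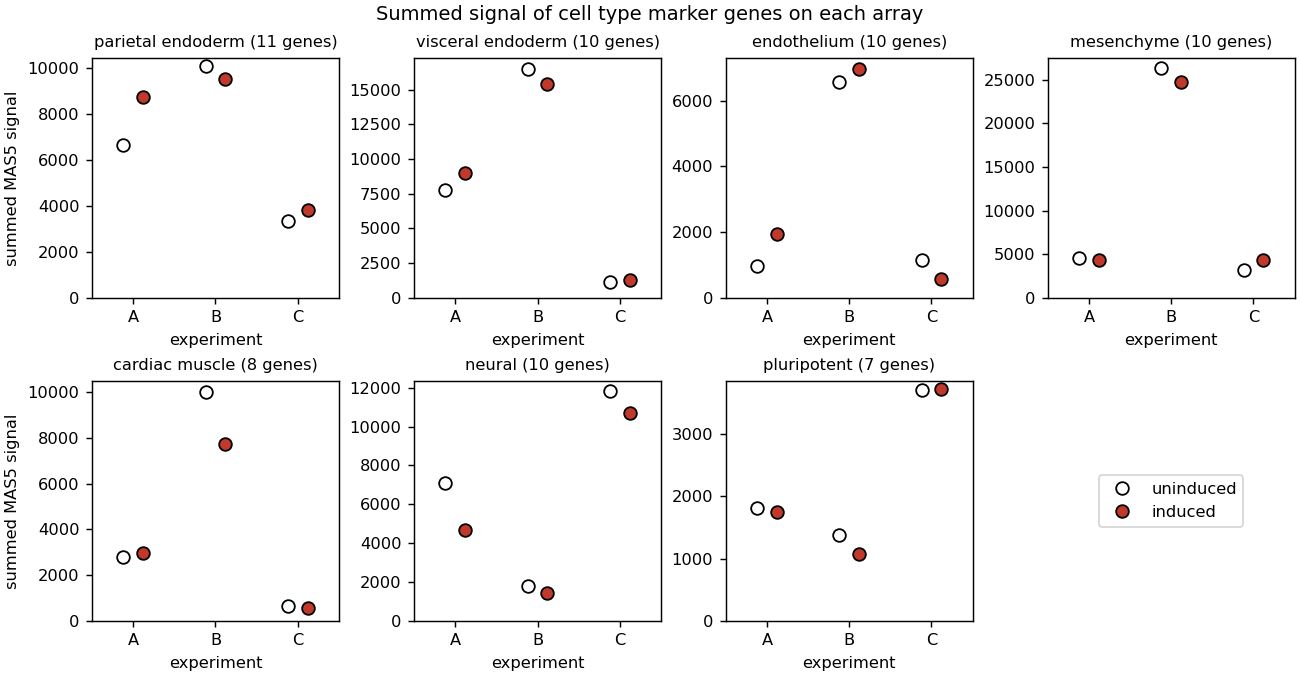
Summed scaled MAS5 signal (vertical axes, from 0) of the tested marker genes of 7 cell types on each array, open for uninduced and filled for induced cultures of experiments A, B and C. The endoderm, endothelium, mesenchyme and cardiac sums are highest in B, and the neural and pluripotent sums are highest in C. Single visceral endoderm markers were split between A and B, with 3 called higher and 3 lower in B. Without Dppa5a the pluripotent sum in C lies within the range of A. The sums of A and B overlap for visceral endoderm without Ttr and for parietal endoderm without Dab2.

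The genes most like the members were ranked by their correlation over the 6 arrays with the members' mean profile, which stood at 0.24 and 0.17 for A, 0.35 and 0.49 for B and -0.72 and -0.53 for C on the log2 scale. Among 3538 genes with an SD of at least 0.5, 137 had an r above 0.95, a description over 6 arrays that share cells within experiments. The 8 highest were Car4, Tbx20, Gm20559, Itga8, Jun, Ttr, Spink1 and Arap3, with r from 0.992 to 0.999. Their C minus B was -1.49 for Car4, a carbonic anhydrase, -4.59 for Tbx20, a cardiac transcription factor, and -1.49 for Itga8, an integrin subunit. For Jun, Ttr and Spink1 the differences were -1.65, -6.28 and -5.20. Actb, the reference gene, differed by 0.04 between C and B and by 0.57 between C and A, and by 0.01 with doxycycline. Its F test over the experiments passed the threshold narrowly (adjusted p = 0.0499), so the reference gene was itself called between experiments.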

How the data were processed

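Total RNA (4.3 µg) was labelled in 1 cycle and hybridized to Affymetrix Mouse Genome 430 2.0 arrays, per the labels. The authors deposited 1 linear intensity per probe set and array, made with MAS5 per the submitters' processing notes; its version is not given in the sources used here. After trimming 2% off each end, the mean was 500 on each array. Log2(signal + 18.8), the offset being the 20th percentile, was computed, probe sets with a mean below the 40th percentile were left out, and gene names came from the platform annotation in GEO, updated through RefSeq (GRCm38.p6) for 34754 of 34958 probe sets with 1 gene; 932 named several genes and 9211 none. A gene is represented by its tested probe set of highest mean.

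Contrasts were fitted with limma 3.58.1 in R 4.3.3 (intensity trend, two-sided, Benjamini-Hochberg over all tested probe sets, threshold 0.05): doxycycline without a block, and experiments with doxycycline as a term. The fits were checked on simulated data in which few probe sets differed between experiments. That check cannot show if the doxycycline fit would find a change beside the spread between the real experiments. Deviations from group means correlated at 0.445 to 0.671 between arrays of the same letter. The sample titles give both arrays of a pair the same replica letter, so the letters were taken to pair the arrays. Members and lists were chosen with earlier results of these data known. The genes named are the members, up to 6 per list by smallest F test p among those called, Actb, and the 8 genes most correlated with the members. Col4a5, Col4a6 and Pxdn were named after their values were seen. Alternatives were the offset, filter, quantile normalization, trend, block, doxycycline term, gene summary and arrays left out.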

Additional observations from a re-analysis of the deposited data

How the results depend on the processing

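The count of doxycycline calls was 0 under all 16 alternatives, the replicate block (the paired analysis) included. The block entered only the doxycycline fit. Without the intensity trend, 1186 probe sets in place of 3138 differed between experiments, with 1 member probe set in place of 9, 2 in place of 8 lower in C than in B and 0 in place of 6 lower in C than in A. Leaving out 1 array, or both arrays of an experiment, gave 1098 to 13806 probe sets and 1 to 14, 2 to 12 and 0 to 10 member probe sets for these counts. Other offsets, filters, quantile normalization and the fit without a doxycycline term kept each of these counts within 1.5 times. For Lama1 the doxycycline difference turned to -0.0096 under quantile normalization. Its range when arrays were left out was -0.24 to 0.39, and the doxycycline ranges of the other members that changed sign were -0.38 to 0.49 for Col4a1, -0.70 to 0.24 for Lamb1, -0.30 to 0.16 for Lamc1, -0.56 to 0.77 for Nid1 and -0.60 to 0.15 for Sparc. For B minus A the ranges that changed sign were -0.28 to 0.16 for Col4a1, -0.27 to 0.19 for Col4a2, -0.14 to 0.51 for Lamb1 and -0.32 to 0.16 for Lamc1. With the median over a gene's probe sets, C minus B was 0.14 for Lamc1 and C minus A was -0.29 for Hspg2. The differences of C from B and from A kept their sign for the called members under each alternative run. The cause of these shifts was not tested. With 3 arrays per group and 2 per experiment, and no detection calls, dim probe sets were measured with little precision.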
